A study of Mus musculus with 18 samples.

Results

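The genes described here make up 3 connected repair routes: homologous recombination, the Fanconi anaemia pathway and mismatch repair, together with the kinases that signal damage to them. They were taken by name: 33 symbols out of the 54279 rows that each of the 2 deposited tables holds, and a row was found for all 33. RNA was sequenced in bulk from mouse oligodendrocyte progenitors (OPCs), cells that divide and later give rise to myelinating oligodendrocytes. They had been derived from epiblast stem cells and grown with Fgf2 and Pdgfa. The cells carried either a CRISPR edit of Vhl or a CRISPR control. The Vhl protein targets hypoxia-inducible factor for degradation. AZD8330 blocks MEK, the kinase that activates ERK downstream of growth factor receptors. The 6 groups had 3 libraries each, lettered A to C, 18 in all. In the drug experiment, Vhl and control cells received 300 nM AZD8330 for 14 hours (Vhl AZD8330 and control AZD8330), and Vhl and control cells received DMSO for the same time (Vhl DMSO and control DMSO). The other experiment compared untreated Vhl cells with untreated control cells. All groups shared the culture medium with its growth factors, and the labels do not say whether an edited line was 1 clone or a pool of cells.

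Homologous recombination repairs a double-strand break by copying the sister chromatid: the end is cut back to single-stranded DNA, BRCA2 loads a recombinase onto it, and the resulting filament invades the intact copy. The Fanconi anaemia proteins unhook crosslinks between DNA strands and protect stalled forks, and mismatch repair removes bases misplaced by the polymerase. These routes work mainly in S and G2 phase, and transcription of many of their genes is known to rise as cells enter S phase, through E2F factors.

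Libraries held between 12391077 and 21160250 estimated counts. Levels are given as CPM, estimated counts scaled to the library total after TMM normalization. They are compared within a gene only, since CPM does not correct for gene length. Vhl transcript was lower in Vhl cells than in control cells in every library: 92 to 104.7 CPM in Vhl AZD8330 libraries, against 136.7 to 139.8 CPM in control AZD8330 libraries, 90 to 94.1 CPM in Vhl DMSO libraries, against 102.3 to 108.8 CPM in control DMSO libraries, and 74.1 to 90.2 CPM in untreated Vhl libraries, against 116.9 to 125.4 CPM in untreated control libraries. Of the hypoxia target Bnip3, Vhl libraries of the drug experiment held 620.4 to 967.6 CPM, against 18.5 to 37.8 CPM in control libraries, and Vegfa had log2 changes of 4.66 in AZD8330 and 3.84 in DMSO. In untreated cells Bnip3 was at 160.1, 513.7 and 517.0 CPM in untreated Vhl libraries, against 17.1, 17.5 and 19.2 CPM in untreated control libraries, and Vegfa at 38.8, 408.4 and 644.0 CPM in untreated Vhl libraries, against 6.6, 8.29 and 6.13 CPM in untreated control libraries, so that Vhl A lay between the other Vhl libraries and the control libraries for both. Dusp6, a gene switched on by ERK, was at 20.5 to 34.7 CPM in AZD8330 libraries, against 366.1 to 424.6 CPM in DMSO libraries, and Spry4, another ERK target, had log2 changes with AZD8330 of -3.01 in Vhl cells and -3.31 in control cells. All 7 OPC markers, Olig2 among them, averaged at least 1 CPM in each group. Olig2 was higher in Vhl than in control cells, with log2 changes of 0.21 in AZD8330 and 0.17 in DMSO. Sox10, another of the 7 and an OPC transcription factor, was lower in Vhl cells. It averaged 31.1 CPM in Vhl AZD8330 libraries, against 97.5 CPM in control AZD8330 libraries (log2 change -1.65), and 17.7 CPM in Vhl DMSO libraries, against 51.3 CPM in control DMSO libraries (-1.53). Of other cell types, summed microglia markers stayed at or under 1.65 CPM and summed endothelial markers at or under 16.7 CPM. The pluripotency genes Pou5f1 and Zfp42 were listed at 0 in every library. Of the 5 pluripotency markers, 2 averaged at least 1 CPM in each group, and the sum ran from 4.11 to 23.8 CPM. Astrocyte markers summed to 199.9 to 1357 CPM, oligodendrocyte markers to 142.6 to 1011 CPM and neuron markers to 994.0 to 4158 CPM over all libraries. The spread within groups was wider in the untreated table, with an edgeR common dispersion of 0.144, against 0.0161 in the drug table. Both untreated A libraries stood apart from B and C: Sox10, an OPC transcription factor, was at 327.1, 15.3 and 16 CPM in untreated Vhl A, B and C and at 526.9, 88.1 and 87.8 CPM in untreated control A, B and C.

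Of the 33 genes, 30 averaged at least 1 CPM over the drug table and were tested there, and 29 were tested in the untreated table. Nbn, Rad50 and Xrcc2 fell under that level in both tables and Brca1 in the untreated table. Nbn, a subunit of the complex that opens break ends, was listed at 0 in all libraries except untreated Vhl C, with 52.3 estimated counts. Its partner Rad50 lay between 0 and 1.43 CPM, and Xrcc2, a paralog of the recombinase, between 0.127 and 1.44 CPM over all 18 libraries. A listed 0 is not evidence of an unexpressed gene in these tables, since the deposited values may cover only part of the reads of some genes: Polr2a, a subunit of the polymerase that every cell uses, was listed with 0 to 59 estimated counts in the drug table. No source used here says whether counting used the strand. In 6 of the 33 genes at least 10% of the exon bases overlap exons of 1 other gene in GENCODE M21, which makes their values uncertain: Rad54b with Fsbp (35.8%), Fancc with Gm16133 (16.4%), Fanci with Polg (16.0%), Rad54l with Lrrc41 (15.4%), Fancl with Vrk2 (13.7%) and Fanca with Zfp276 (10.5%).

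The promoters of 5 genes are shown because transcripts of all 5 fell with AZD8330 in control cells and because the windows hold or lack a short E2F-type sequence. Windows from 250 bases before to 50 bases after the gene start were taken from RefSeq (GRCm38.p6) and read 5′ to 3′ on the strand of the gene. Capitals mark a match to TTTCCCGC, TTTCGCGC, TTTGCCGC or TTTGGCGC on either strand.
Bard1 (chr1:71102923-71103222, minus strand): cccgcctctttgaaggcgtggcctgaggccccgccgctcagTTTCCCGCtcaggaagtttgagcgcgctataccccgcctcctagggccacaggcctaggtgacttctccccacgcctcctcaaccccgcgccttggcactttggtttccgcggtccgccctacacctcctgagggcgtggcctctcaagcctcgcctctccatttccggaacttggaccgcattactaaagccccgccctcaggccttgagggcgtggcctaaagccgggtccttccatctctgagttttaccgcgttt
Brca2 (chr5:150522371-150522670, plus strand): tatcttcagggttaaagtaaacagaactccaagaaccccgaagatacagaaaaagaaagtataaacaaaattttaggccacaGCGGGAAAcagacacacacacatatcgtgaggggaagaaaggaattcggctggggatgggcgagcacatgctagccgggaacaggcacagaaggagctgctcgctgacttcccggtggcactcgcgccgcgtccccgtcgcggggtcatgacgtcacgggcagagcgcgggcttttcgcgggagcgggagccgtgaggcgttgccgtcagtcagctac
Msh6 (chr17:87974800-87975099, plus strand): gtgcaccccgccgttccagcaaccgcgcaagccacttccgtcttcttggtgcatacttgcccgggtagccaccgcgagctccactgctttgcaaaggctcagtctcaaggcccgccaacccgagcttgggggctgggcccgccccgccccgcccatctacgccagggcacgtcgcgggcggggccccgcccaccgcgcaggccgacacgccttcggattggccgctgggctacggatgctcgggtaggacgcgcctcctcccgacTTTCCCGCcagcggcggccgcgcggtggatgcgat
Fancg (chr4:43010252-43010551, minus strand): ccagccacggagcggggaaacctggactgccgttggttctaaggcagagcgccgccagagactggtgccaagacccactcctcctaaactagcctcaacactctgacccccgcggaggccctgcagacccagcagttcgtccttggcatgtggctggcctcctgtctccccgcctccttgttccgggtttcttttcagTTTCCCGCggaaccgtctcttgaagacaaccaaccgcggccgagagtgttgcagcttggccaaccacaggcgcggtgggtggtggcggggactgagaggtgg
Brip1 (chr11:86201144-86201443, minus strand): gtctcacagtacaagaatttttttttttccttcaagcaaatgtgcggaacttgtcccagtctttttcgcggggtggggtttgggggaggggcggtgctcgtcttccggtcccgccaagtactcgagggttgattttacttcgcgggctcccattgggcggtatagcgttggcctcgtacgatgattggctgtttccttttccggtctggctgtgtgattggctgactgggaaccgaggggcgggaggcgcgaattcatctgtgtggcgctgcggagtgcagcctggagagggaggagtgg
The match began at position -209 relative to the gene start in Bard1, at -168 in Brca2, at -52 in Fancg and at 15 in Msh6, and Brip1 had none. RefSeq windows were found for 25 of the 33 genes, 28 windows in all, of which 7 (25.0%) held a match, against 744 of all 32851 windows (2.26%). The 6 genes with a match were Bard1, Brca2, Chek2, Fancg, Msh6 and Rad51c, with log2 changes with AZD8330 in control cells of -2.68, -2.03, -2.51, -0.36, -1.71 and -2.07, in that order; genes with and without a match were not compared by a test. The cell cycle letters TTTGAA or TTCGAA stood on either strand in 10.7% of the windows of these genes, against 19.2% of all windows, and the hypoxia-type letters ACGTG or GCGTG in 60.7%, against 43.8%; a window counted once however many matches it held, overlapping ones included. Median GC content was 58.2% in these windows and 52.7% in all windows. A match is a description of letters and does not show that a factor binds there.

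AZD8330 lowered nearly the whole set. In Vhl cells 25 of the 30 tested genes fell and 0 rose, where 25.6% of all 13460 tested genes fell and 25.8% rose. In control cells 27 of 30 fell and 0 rose, where 31.7% of all tested genes fell and 29.1% rose. The median log2 change of the 30 genes was -1.70 in Vhl cells and -1.92 in control cells, while the medians of all tested genes were 0.03 in Vhl cells and -0.01 in control cells. All 30 estimates were below 0 in both cell types, and they were also below 0 under each of the other 2 library scalings. AZD8330 and DMSO libraries did not overlap for 26 genes in Vhl cells and for 28 in control cells. The share of all tested genes without overlap was not counted. Of all tested genes, 51.4% were called in either direction in Vhl cells and 60.8% in control cells. At an unadjusted p under 0.05, 27 repair genes fell in Vhl cells and 28 in control cells, and 0 rose. Of all 13460 tested genes, 7616 passed that threshold in either direction in Vhl cells and 8640 in control cells. DESeq2 and limma also gave 0 risen repair genes. Falls were called in both cell types for 24 genes, 24 of the 25 in Vhl cells and 24 of the 27 in control cells. How many of all tested genes fell in both was not counted. Of the called repair genes, 12 in Vhl cells and 15 in control cells fell by 2 or more on the log2 scale. Log2 changes below carry their standard error (SE, or the value after ± beside a log2 change), adjusted p-values come from edgeR over all tested genes, and "called" means an adjusted p under 0.05. In bulk RNA, fewer cells that express a gene and less RNA of it per cell cannot be told apart.

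**Figure D1:**
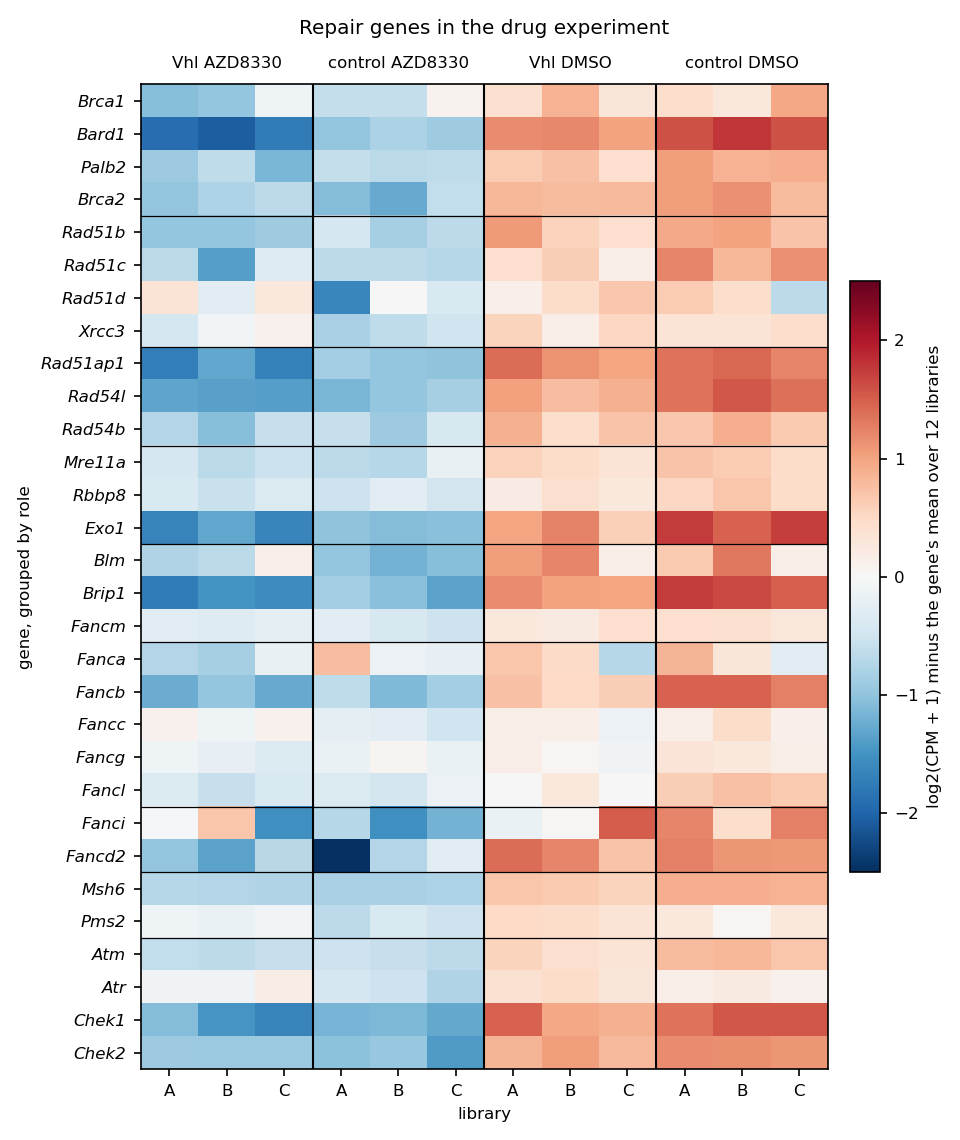
Levels of the 30 tested repair genes in the 12 libraries of the drug experiment, as log2(CPM + 1) minus the mean of the gene over the 12 libraries; rows are grouped by role, columns by group. Blue AZD8330 libraries stand against red DMSO libraries in nearly every row, and single libraries depart from their group in Fanci, Fancd2, Fanca, Blm and Rad51d.

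**Figure D2:**
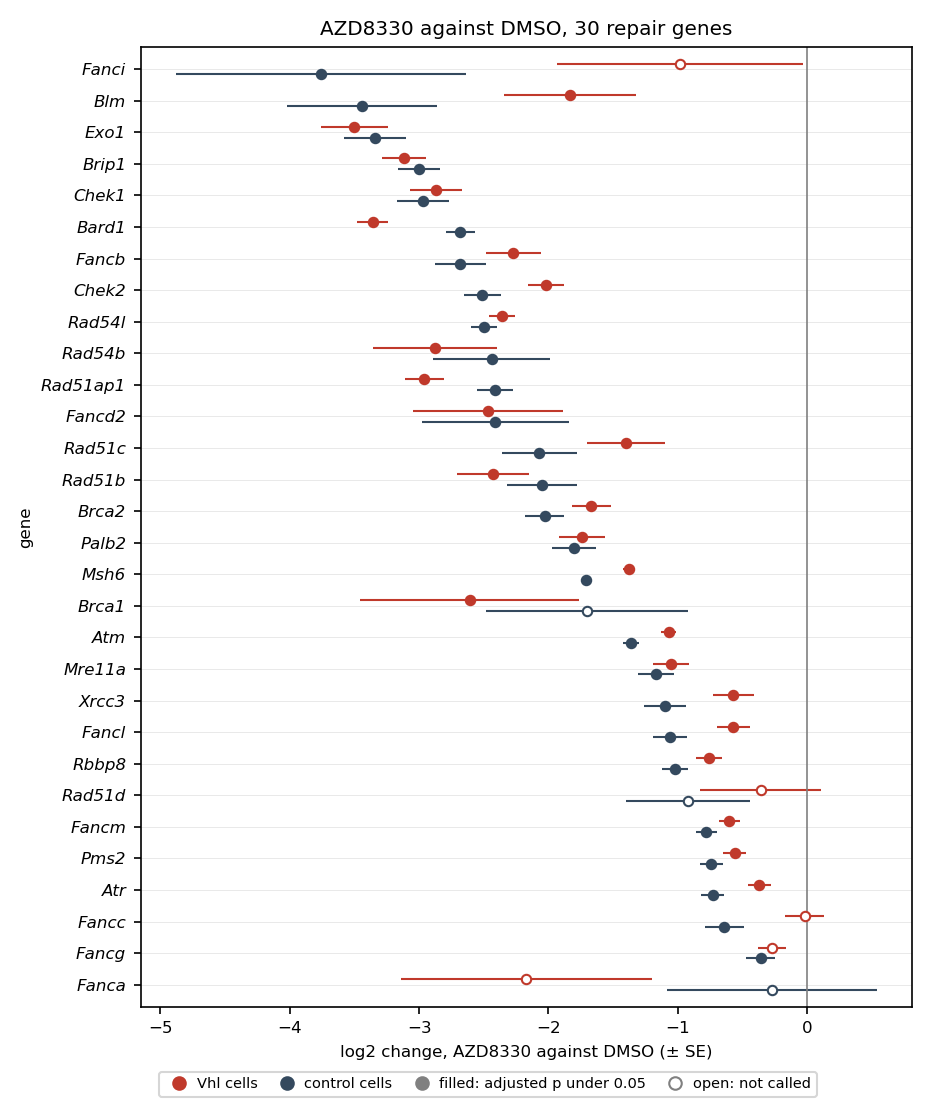
Log2 change with AZD8330 against DMSO of each of the 30 tested repair genes (points) with its standard error (bars), in Vhl cells (red) and control cells (blue); filled points have an adjusted p under 0.05. All points lie left of 0, from -3.50 for Exo1 in Vhl cells and -3.76 for Fanci in control cells to -0.02 for Fancc in Vhl cells and -0.27 for Fanca in control cells.

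Of the BRCA1-BRCA2 axis, whose proteins bring the recombinase to resected ends, 4 of 4 genes fell in Vhl cells and 3 of 4 in control cells. Bard1, the obligate partner of BRCA1 in a ubiquitin ligase, was at 3.46, 2.95 and 3.94 CPM in Vhl AZD8330 libraries, against 36.8, 37 and 32.1 CPM in Vhl DMSO libraries. In control cells Bard1 was at 7.43, 8.63 and 7.98 CPM in control AZD8330 libraries, against 49.3, 56.3 and 48.9 CPM in control DMSO libraries. The 4 groups did not overlap, and Vhl AZD8330 libraries were the lowest. Bard1 fell to 9.77% of the DMSO level in Vhl cells (log2 change -3.36, SE 0.12, adjusted p = 1.26e-10) and to 15.6% in control cells (log2 change -2.68, SE 0.11, adjusted p = 2.28e-10). Brca2, which loads the recombinase, was at 14.1, 16.5 and 18 CPM in Vhl AZD8330 libraries, against 52.1, 50.8 and 51.4 CPM in Vhl DMSO libraries. In control cells Brca2 was at 13.2, 11.5 and 18.7 CPM in control AZD8330 libraries, against 61, 65.6 and 50.7 CPM in control DMSO libraries. AZD8330 libraries lay below all DMSO libraries in both cell types (log2 change -1.67, SE 0.15, adjusted p = 9.34e-07 in Vhl cells and log2 change -2.03, SE 0.15, adjusted p = 9.23e-08 in control cells). Palb2, which links BRCA1 to BRCA2, was at 3.11, 3.93 and 2.48 CPM in Vhl AZD8330 libraries, against 10.9, 11.8 and 9.3 CPM in Vhl DMSO libraries. In control cells Palb2 was at 4.07, 3.86 and 3.95 CPM in control AZD8330 libraries, against 14.8, 13.1 and 13.5 CPM in control DMSO libraries, and the fall was close to that in Vhl cells (log2 change -1.74, SE 0.18, adjusted p = 2.72e-06 in Vhl cells and log2 change -1.8, SE 0.17, adjusted p = 1.08e-06 in control cells). Brca1 itself had few counts: 0, 0.0656 and 0.949 CPM in Vhl AZD8330 libraries, against 1.76, 2.8 and 1.59 CPM in Vhl DMSO libraries. In control cells Brca1 was at 0.381, 0.392 and 1.22 CPM in control AZD8330 libraries, against 1.85, 1.54 and 3.08 CPM in control DMSO libraries. The fall of Brca1 was called in Vhl cells (log2 change -2.61, SE 0.85, adjusted p = 0.021) and not in control cells (log2 change -1.7, SE 0.78, adjusted p = 0.0759). The Vhl call ended without Vhl AZD8330 B (adjusted p = 0.0682) or without Vhl DMSO B (0.0641), and a call in control cells appeared without control AZD8330 C (0.0386), with limma on log2(CPM + 1) (0.0169), with no filter (0.019), in a fit of the 2 control groups alone (0.0268) and with the replicate letter as a block (0.0493). The difference between the 2 drug effects on Brca1 was not called (log2 -0.91 ± 1.15, adjusted p = 0.681).

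All 3 genes for proteins that help the recombinase filament find and invade its target fell in both cell types. Rad51ap1, which stimulates strand invasion, was at 4.15, 5.97 and 4.31 CPM in Vhl AZD8330 libraries, against 43.7, 36.3 and 32.7 CPM in Vhl DMSO libraries. In control cells Rad51ap1 was at 8.51, 7.78 and 7.55 CPM in control AZD8330 libraries, against 43, 45.5 and 38.6 CPM in control DMSO libraries. The AZD8330 libraries were lower than every DMSO library, with log2 change -2.96, SE 0.15, adjusted p = 3.30e-09 in Vhl cells and log2 change -2.41, SE 0.14, adjusted p = 8.35e-09 in control cells. Rad54l, a motor protein that remodels DNA during strand exchange, was at 9.19, 8.92 and 8.76 CPM in Vhl AZD8330 libraries, against 50.5, 42.4 and 45.5 CPM in Vhl DMSO libraries. In control cells Rad54l was at 10.5, 12 and 13.2 CPM in control AZD8330 libraries, against 63.6, 72.9 and 64.3 CPM in control DMSO libraries. It fell to 19.4% of the DMSO level in Vhl cells (log2 change -2.36, SE 0.10, adjusted p = 5.97e-10) and to 17.7% in control cells (log2 change -2.5, SE 0.10, adjusted p = 1.62e-10). The related motor gene Rad54b was at 0.377 ± 0.229 CPM in Vhl AZD8330 libraries, against 2.8 ± 0.586 CPM in Vhl DMSO libraries (SD, n = 3 each), and fell in both cell types (log2 changes -2.88 ± 0.48 in Vhl cells and -2.44 ± 0.45 in control cells). Its AZD8330 libraries held only 2.24 to 10.7 estimated counts. Of the 4 tested recombinase paralogs, which assemble and steady the filament, 3 fell in each cell type. Rad51b (log2 changes -2.43 ± 0.28 in Vhl cells and -2.05 ± 0.27 in control cells), Rad51c (-1.4 ± 0.30 in Vhl cells and -2.07 ± 0.29 in control cells) and Xrcc3 (-0.57 ± 0.16 in Vhl cells and -1.1 ± 0.16 in control cells) were the 3. Rad51d was not called in either (log2 changes -0.36 ± 0.47 in Vhl cells and -0.92 ± 0.48 in control cells). Its libraries differed widely within groups, from 1.14 to 5.69 CPM in control AZD8330 libraries and from 3.22 to 9.35 CPM in control DMSO libraries, and a call in control cells appeared without control AZD8330 B (adjusted p = 0.0445) or without control DMSO C (0.0357), or with no filter (0.018).

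All 3 tested genes for cutting back break ends fell in both cell types, and Exo1 had the lowest log2 change of the 30 genes in Vhl cells. Exo1, the nuclease of long-range resection that also removes the mismatched strand in mismatch repair, was at 0.622, 1.11 and 0.657 CPM in Vhl AZD8330 libraries, against 9.34, 11.3 and 6.81 CPM in Vhl DMSO libraries. In control cells Exo1 was at 1.59, 1.44 and 1.51 CPM in control AZD8330 libraries, against 16.5, 13.4 and 16.1 CPM in control DMSO libraries. The AZD8330 libraries held only 8.72 to 25.1 estimated counts of Exo1, and those of Vhl cells lay below those of control cells. The fall was to 8.71% of the DMSO level in Vhl cells (log2 change -3.5, SE 0.26, adjusted p = 1.49e-07) and to 9.85% in control cells (log2 change -3.34, SE 0.24, adjusted p = 7.38e-08). The nuclease gene Mre11a fell less, with log2 changes of -1.05 ± 0.14 in Vhl cells and -1.17 ± 0.14 in control cells. Rbbp8, the cofactor that starts resection, fell with log2 changes of -0.76 ± 0.10 in Vhl cells and -1.02 ± 0.10 in control cells.

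The 3 helicase genes fell in both cell types, by unequal amounts. Brip1, the BRCA1-associated helicase of the Fanconi pathway, was at 1.87, 2.43 and 2.26 CPM in Vhl AZD8330 libraries, against 20.8, 18.3 and 18.1 CPM in Vhl DMSO libraries. In control cells Brip1 was at 4.32, 3.66 and 2.8 CPM in control AZD8330 libraries, against 31.6, 29.2 and 26.2 CPM in control DMSO libraries. It fell to 11.5% of the DMSO level in Vhl cells (log2 change -3.12, SE 0.17, adjusted p = 5.97e-09) and to 12.4% in control cells (log2 change -3, SE 0.16, adjusted p = 2.99e-09). Fancm, a translocase that recognises stalled forks, fell to 66% in Vhl cells and 58.1% in control cells (log2 changes -0.6 ± 0.08 in Vhl cells and -0.78 ± 0.08 in control cells). Blm, which dissolves recombination intermediates, had log2 changes of -1.83 ± 0.51 in Vhl cells and -3.44 ± 0.58 in control cells, on few counts: 0.262 to 0.445 CPM in control AZD8330 libraries, against 2.22 to 6.1 CPM in control DMSO libraries.

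The Fanconi core complex, which attaches ubiquitin to the FANCI-FANCD2 pair, held both strong and weak responders: 2 of 5 genes fell in Vhl cells and 4 of 5 in control cells. Fancb, a scaffold subunit, was at 1.52, 2.03 and 1.46 CPM in Vhl AZD8330 libraries, against 8.86, 7.38 and 8.09 CPM in Vhl DMSO libraries. In control cells Fancb was at 2.8, 1.77 and 2.3 CPM in control AZD8330 libraries, against 15.4, 15.5 and 13.2 CPM in control DMSO libraries. AZD8330 and DMSO libraries did not overlap in either cell type (log2 change -2.27, SE 0.21, adjusted p = 1.00e-06 in Vhl cells and log2 change -2.68, SE 0.20, adjusted p = 9.69e-08 in control cells). Fancl, the catalytic ubiquitin ligase subunit, fell to 67.5% of the DMSO level in Vhl cells (log2 change -0.57 ± 0.13) and to 47.9% in control cells (-1.06 ± 0.13). Fancc and Fancg, further subunits of the complex, had small log2 changes. Fancc was at 12.2, 10.4 and 12.2 CPM in Vhl AZD8330 libraries, against 12.5, 12.7 and 10.1 CPM in Vhl DMSO libraries, which overlap, and was not called (log2 change -0.02, SE 0.15, adjusted p = 0.913). In control cells Fancc was at 9.4, 9.09 and 7.62 CPM in control AZD8330 libraries, against 12.8, 15.8 and 12.3 CPM in control DMSO libraries, which do not overlap, and fell (log2 change -0.64, SE 0.15, adjusted p = 0.00193). The difference between the 2 drug effects on Fancc was not called (log2 0.62 ± 0.21, adjusted p = 0.0717). Fancg was not called in Vhl cells (log2 change -0.27, SE 0.11, adjusted p = 0.0577) and fell in control cells (log2 change -0.36, SE 0.11, adjusted p = 0.0121). The Fancg call in control cells ended without control AZD8330 C (adjusted p = 0.0756), and one in Vhl cells appeared without Vhl AZD8330 A (0.0225) or without Vhl DMSO C (0.0399), at a mean of at least 5 CPM (0.0427), with libraries scaled by their totals (0.047) and with the replicate block (0.0413). Fanca, another core subunit, was not called in either cell type: 0.138, 0.0656 and 0.657 CPM in Vhl AZD8330 libraries, against 2.08, 1.64 and 0.151 CPM in Vhl DMSO libraries, and 2.22, 0.719 and 0.647 CPM in control AZD8330 libraries, against 2.42, 1.34 and 0.572 CPM in control DMSO libraries. A Fanca call in Vhl cells appeared without Vhl AZD8330 C (log2 change -3.60, adjusted p = 0.0299) or without Vhl DMSO C (-2.69, 0.021), or with no filter (-2.17, 0.0145).

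The FANCI-FANCD2 pair, the clamp that the core complex modifies, was uneven between libraries. Fancd2 was at 2.97, 2.1 and 3.87 CPM in Vhl AZD8330 libraries, against 19.9, 17.4 and 12 CPM in Vhl DMSO libraries. In control cells Fancd2 was at 0.191, 3.73 and 5.46 CPM in control AZD8330 libraries, against 17.8, 15.9 and 15.7 CPM in control DMSO libraries. Control AZD8330 A held 3.345 estimated counts of Fancd2, against 57.1 in B and 75.5 in C. Fancd2 fell in both cell types (log2 change -2.47, SE 0.58, adjusted p = 0.00303 in Vhl cells and log2 change -2.41, SE 0.57, adjusted p = 0.00268 in control cells). Fanci was at 1.8, 3.67 and 0 CPM in Vhl AZD8330 libraries, against 1.6, 1.98 and 7.34 CPM in Vhl DMSO libraries, which overlap, and was not called (log2 change -0.98, SE 0.95, adjusted p = 0.421). In control cells Fanci was at 0.762, 0 and 0.288 CPM in control AZD8330 libraries, against 5.79, 2.95 and 5.94 CPM in control DMSO libraries, and fell (log2 change -3.76, SE 1.12, adjusted p = 0.0109).

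Both mismatch repair genes fell. Msh6, a subunit of the dimer that recognises mismatches, was at 59, 57.8 and 57.4 CPM in Vhl AZD8330 libraries, against 157.2, 152.5 and 143.8 CPM in Vhl DMSO libraries. In control cells Msh6 was at 54.6, 54.9 and 56.7 CPM in control AZD8330 libraries, against 182.7, 182.3 and 176.8 CPM in control DMSO libraries. The libraries of a group lay close together, and AZD8330 and DMSO libraries were far apart. Msh6 fell to 38.4% of the DMSO level in Vhl cells (log2 change -1.38, SE 0.04, adjusted p = 1.96e-11) and to 30.7% in control cells (log2 change -1.71, SE 0.04, adjusted p = 2.46e-12). Pms2, the endonuclease subunit that nicks the new strand, fell to 67.7% in Vhl cells (log2 change -0.56 ± 0.09) and to 60% in control cells (-0.74 ± 0.09).

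All 4 checkpoint kinase genes fell in both cell types, with log2 changes further from 0 for the effector kinases than for the kinases upstream of them. Chek1, the effector of ATR that restrains replication origins and entry into mitosis, was at 4.01, 2.82 and 2.34 CPM in Vhl AZD8330 libraries, against 28.6, 19.9 and 18.8 CPM in Vhl DMSO libraries. In control cells Chek1 was at 3.75, 3.86 and 3.38 CPM in control AZD8330 libraries, against 26.4, 30 and 30.1 CPM in control DMSO libraries. It fell to 13.6% of the DMSO level in Vhl cells (log2 change -2.87, SE 0.20, adjusted p = 9.15e-08) and to 12.7% in control cells (log2 change -2.97, SE 0.20, adjusted p = 3.33e-08). Chek2, the effector of ATM, was at 4.98, 4.92 and 4.89 CPM in Vhl AZD8330 libraries, against 19.4, 22.1 and 18.7 CPM in Vhl DMSO libraries. In control cells Chek2 was at 4.51, 4.84 and 3.24 CPM in control AZD8330 libraries, against 24.6, 24.1 and 23.3 CPM in control DMSO libraries. AZD8330 and DMSO libraries of Chek2 did not overlap (log2 change -2.02, SE 0.14, adjusted p = 6.44e-08 in Vhl cells and log2 change -2.51, SE 0.14, adjusted p = 5.44e-09 in control cells). Atm, the kinase activated by double-strand breaks, was at 46.9, 45.3 and 48.3 CPM in Vhl AZD8330 libraries, against 106.2, 96.4 and 91.9 CPM in Vhl DMSO libraries. In control cells Atm was at 50.5, 47.9 and 45.8 CPM in control AZD8330 libraries, against 125.5, 128.6 and 117.2 CPM in control DMSO libraries. It fell to 47.7% in Vhl cells (log2 change -1.07, SE 0.06, adjusted p = 1.27e-08) and to 38.8% in control cells (log2 change -1.36, SE 0.06, adjusted p = 6.53e-10). Atr, the kinase activated by single-stranded DNA at stalled forks, was at 52, 51.9 and 63 CPM in Vhl AZD8330 libraries, against 72.1, 75.7 and 68.1 CPM in Vhl DMSO libraries. In control cells Atr was at 41, 38.2 and 32.4 CPM in control AZD8330 libraries, against 61.5, 64.6 and 59.5 CPM in control DMSO libraries. The fall of Atr was among the smallest called (log2 change -0.37, SE 0.09, adjusted p = 0.00387 in Vhl cells and log2 change -0.73, SE 0.09, adjusted p = 1.58e-05 in control cells).

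**Figure D3:**
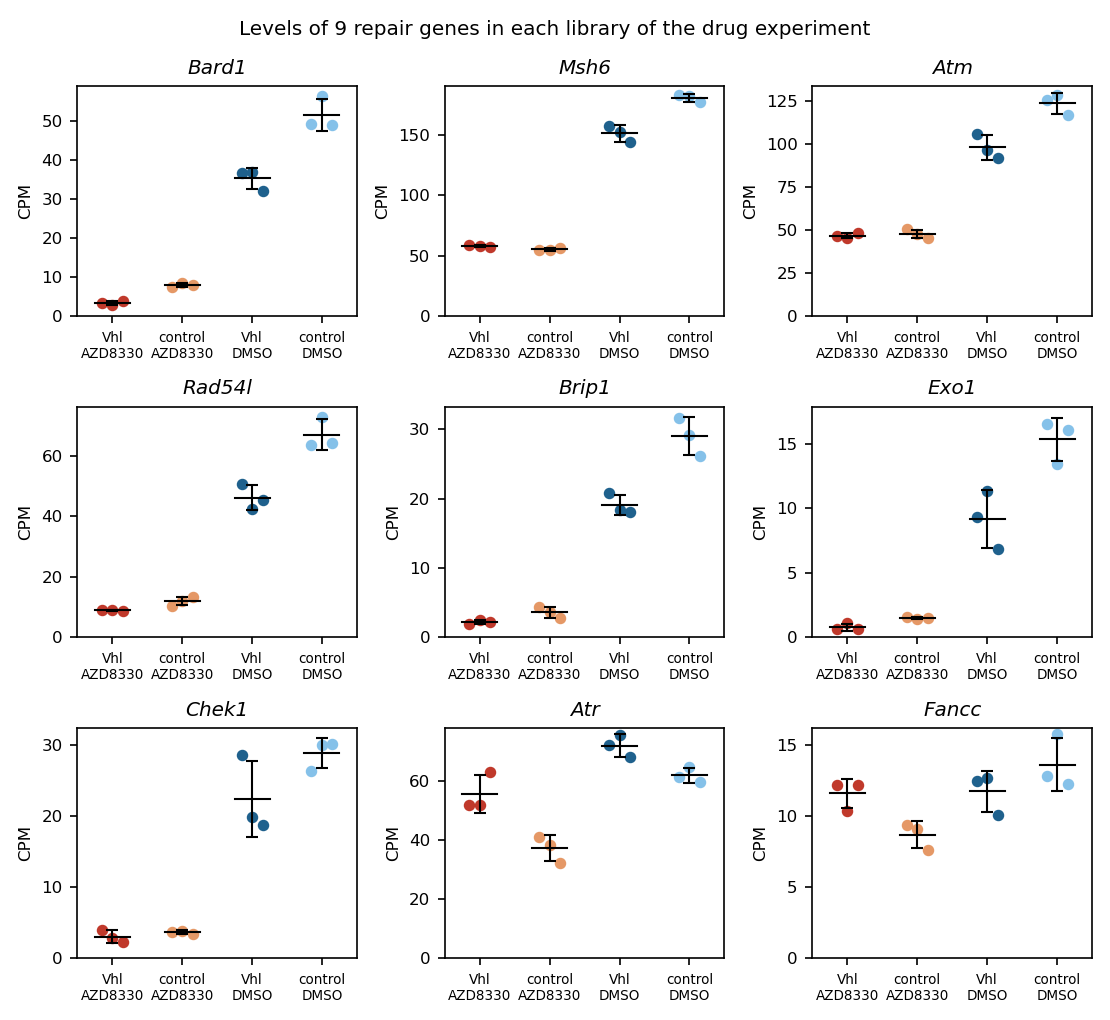
CPM of 9 repair genes in each library of the drug experiment (points), with the mean (line) and SD (error bar) of 3 libraries, for Vhl AZD8330, control AZD8330, Vhl DMSO and control DMSO. Bard1 was lowest in Vhl AZD8330 libraries (2.95 to 3.94 CPM), Atr in control AZD8330 libraries (32.4 to 41.0 CPM), and the Fancc libraries of Vhl AZD8330 and Vhl DMSO overlap.

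Genes of the same routes outside the set moved less uniformly. Of 28 tested further genes of recombination, Fanconi and mismatch repair, 15 fell and 2 rose with AZD8330 in Vhl cells, and 18 fell and 3 rose in control cells (median log2 changes -0.41 in Vhl cells and -0.71 in control cells). The one with the smallest p in both was Topbp1, the activator of ATR, at 49 ± 2.5 CPM in Vhl AZD8330 libraries, against 207.9 ± 16.5 CPM in Vhl DMSO libraries (SD, n = 3 each; log2 change -2.08 ± 0.06), and at 61.5 ± 2.83 CPM in control AZD8330 libraries, against 288.5 ± 8.88 CPM in control DMSO libraries (-2.23 ± 0.06). Of 26 tested genes of end joining and other repair routes, 9 fell and 3 rose in Vhl cells, and 12 fell and 4 rose in control cells (median log2 changes -0.15 in Vhl cells and -0.23 in control cells). Of 25 tested DNA replication genes, 25 fell in Vhl cells and 23 in control cells (medians -2.21 in Vhl cells and -2.11 in control cells), and all 18 tested mitosis genes fell in both (medians -3.62 in Vhl cells and -2.99 in control cells). The differences between these lists were not tested, and the lists were chosen with earlier results of these data known.

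Summed levels of replication and mitosis genes and of other cell types' markers moved with the drug alongside the repair genes. The 26 DNA replication genes summed to 486.3 to 530.2 CPM in Vhl AZD8330 libraries, against 2072 to 2523 CPM in Vhl DMSO libraries, and to 639.3 to 662.2 CPM in control AZD8330 libraries, against 2955 to 3195 CPM in control DMSO libraries. The 20 mitosis genes summed to 246.1 to 292.9 CPM in Vhl AZD8330 libraries, against 2855 to 3112 CPM in Vhl DMSO libraries, and to 532.0 to 577.8 CPM in control AZD8330 libraries, against 3949 to 4558 CPM in control DMSO libraries. Mki67, a marker of dividing cells, fell with log2 changes of -3.61 in Vhl cells and -2.97 in control cells, Mcm2, a subunit of the replicative helicase, with -2.54 in Vhl cells and -2.54 in control cells, and Pcna, the replication clamp, with -1.92 in Vhl cells and -2.23 in control cells. Astrocyte markers, 6 of 6 at 1 CPM or more, summed to 704.3 to 749.8 CPM in Vhl AZD8330 libraries, against 199.9 to 216.6 CPM in Vhl DMSO libraries, and to 1301 to 1357 CPM in control AZD8330 libraries, against 303.7 to 334.4 CPM in control DMSO libraries. Neuron markers, 5 or 6 of 6 at 1 CPM or more, summed to 2441 to 2473 CPM in Vhl AZD8330 libraries, against 1431 to 1566 CPM in Vhl DMSO libraries, and to 2094 to 2104 CPM in control AZD8330 libraries, against 994.0 to 1046 CPM in control DMSO libraries. Oligodendrocyte markers, 3 to 5 of 7 at 1 CPM or more, summed to 372.1 to 403.1 CPM in Vhl AZD8330 libraries, against 163.7 to 180.2 CPM in Vhl DMSO libraries, and to 441.0 to 474.9 CPM in control AZD8330 libraries, against 142.6 to 147.9 CPM in control DMSO libraries. None of these astrocyte, neuron and oligodendrocyte markers was at 0 throughout the drug table. Pluripotency markers, 2 of 5 at 1 CPM or more, summed to 4.77 to 6.2 CPM in Vhl AZD8330 libraries, against 15.8 to 20 CPM in Vhl DMSO libraries, and to 5.9 to 7.32 CPM in control AZD8330 libraries, against 19.2 to 23.8 CPM in control DMSO libraries. OPC markers, 7 of 7 at 1 CPM or more, summed to 8786 to 8922 CPM in Vhl AZD8330 libraries, against 8713 to 8886 CPM in Vhl DMSO libraries, and to 8174 to 8248 CPM in control AZD8330 libraries, against 7936 to 8126 CPM in control DMSO libraries. The part of these shifts in the falls of repair genes was not tested.

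Next, Vhl cells were compared with control cells within each treatment. In DMSO, 8 of the 30 tested genes were lower in Vhl cells and 0 higher, where 18.5% of all tested genes were lower and 13.8% higher; of all calls, 42.6% were higher, and 56.8% when libraries were scaled by their totals. The 8 genes were Bard1, Rad54l, Brip1, Exo1, Fancb, Fancl, Msh6 and Atm. In AZD8330, 5 were lower (Bard1, Rad51ap1, Rad54l, Brip1 and Exo1) and 3 higher (Xrcc3, Pms2 and Atr), where 14.0% of all tested genes were lower and 16.0% higher; of all calls, 53.3% were higher, and 43.7% with DESeq2's size factors. The share of repair genes lower in AZD8330, 16.7%, was near that of all genes, and the share in DMSO was 26.7%. The median log2 change of the 30 genes was -0.07 in AZD8330 and -0.22 in DMSO, with medians of all tested genes of 0.01 in AZD8330 and -0.03 in DMSO. At an unadjusted p under 0.05, 11 repair genes were lower and 2 higher in DMSO. Of all 13460 tested genes, 5597 passed that threshold in DMSO in either direction. For the repair genes in DMSO, limma and DESeq2 also called 0 higher, and scaling by totals called 2 (Atr and Pms2). Bard1, Brip1, Exo1 and Rad54l were lower in both treatments, 4 of the 5 in AZD8330 and 4 of the 8 in DMSO. How many of all tested genes were lower in both was not counted.

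**Figure D4:**
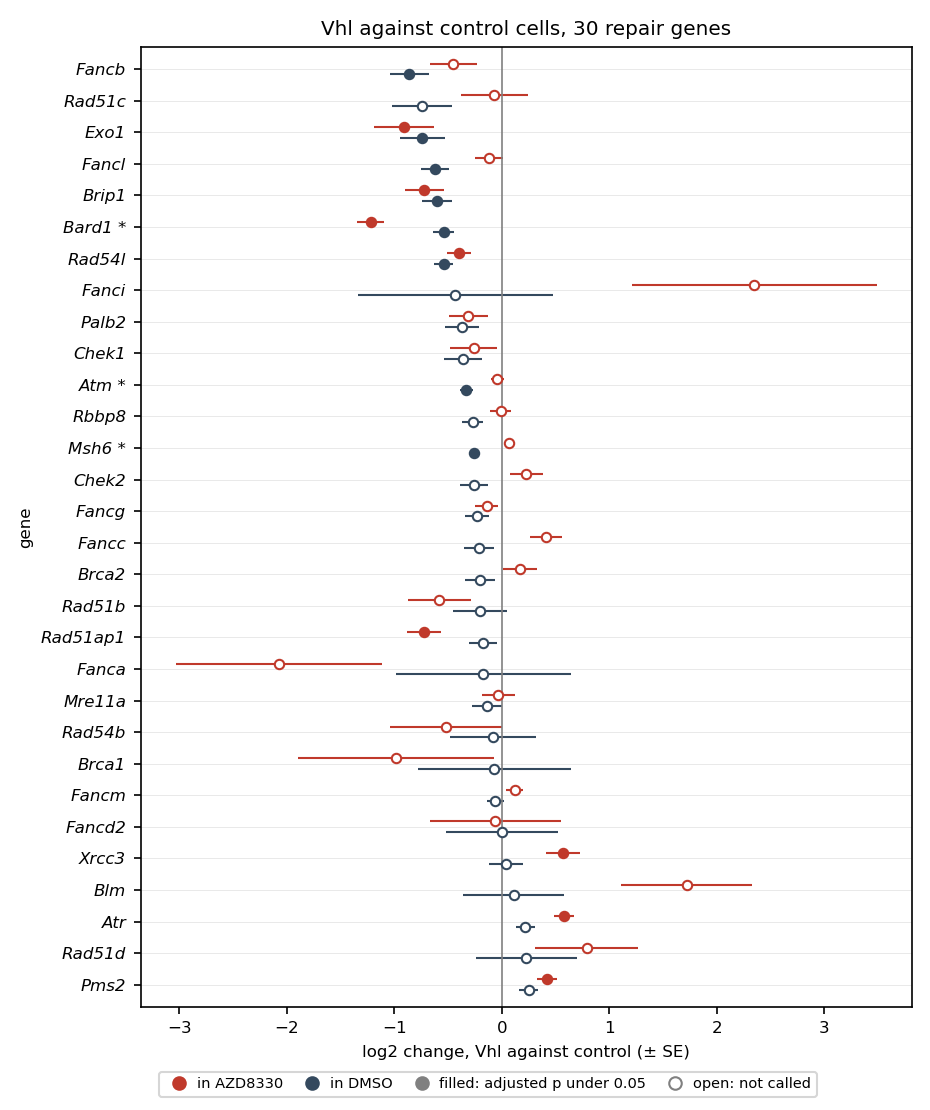
Log2 change of Vhl against control cells for the 30 tested repair genes (points) with its standard error (bars), in AZD8330 (red) and in DMSO (blue); filled points have an adjusted p under 0.05, and a star marks the 3 genes whose Vhl effect differed between treatments. Bard1 lies furthest left among the called genes in AZD8330 (-1.22), and Msh6 and Atm are below 0 in DMSO and near 0 in AZD8330.

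Within the BRCA1-BRCA2 axis Bard1 was the one gene called. It averaged 3.45 ± 0.495 CPM in Vhl AZD8330 libraries and 8.02 ± 0.6 CPM in control AZD8330 libraries (log2 change -1.22, SE 0.13, adjusted p = 1.17e-05), and 35.3 ± 2.75 CPM in Vhl DMSO libraries and 51.5 ± 4.17 CPM in control DMSO libraries (SD, n = 3 each; log2 change -0.54, SE 0.10, adjusted p = 0.000857). No library of a Vhl group reached the lowest control library of its treatment. Brca2 (log2 changes 0.17 ± 0.16 in AZD8330 and -0.2 ± 0.14 in DMSO) and Palb2 (-0.31 ± 0.18 in AZD8330 and -0.37 ± 0.16 in DMSO) were not called. Brca1 was not called in AZD8330 (-0.98 ± 0.91) or DMSO (-0.07 ± 0.71), but was lower in AZD8330 without Vhl AZD8330 C (log2 change -4.01, adjusted p = 0.013).

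Of the strand invasion genes, Rad54l was at 75.5% of the control level in AZD8330 (log2 change -0.4, SE 0.11, adjusted p = 0.0126) and at 69% in DMSO (log2 change -0.54, SE 0.09, adjusted p = 0.000423). A fit of the AZD8330 groups alone ended the AZD8330 call of Rad54l (adjusted p = 0.0529). Rad51ap1 was at 60.5% of the control level in AZD8330 (log2 change -0.72, SE 0.16, adjusted p = 0.00402); in DMSO its libraries overlapped (log2 change -0.17, SE 0.13, adjusted p = 0.339). The difference of its 2 Vhl effects was not called (log2 -0.55 ± 0.20, adjusted p = 0.107), but was without Vhl AZD8330 B (-0.82, 0.0201). Rad54b was not called (log2 changes -0.52 ± 0.52 in AZD8330 and -0.08 ± 0.40 in DMSO). Of the recombinase paralogs, Xrcc3 was higher in Vhl cells in AZD8330, at 9.54, 12.7 and 14.4 CPM in Vhl AZD8330 libraries, against 7.24, 8.3 and 9.13 CPM in control AZD8330 libraries (log2 change 0.57, SE 0.16, adjusted p = 0.019). Those groups were apart by a narrow gap, and the call ended without Vhl AZD8330 B (adjusted p = 0.0709), Vhl AZD8330 C (0.109), control AZD8330 A (0.0754) or control AZD8330 B (0.0601). Rad51c, which was not called in DMSO (log2 change -0.74, SE 0.28, adjusted p = 0.061), was at 7.18, 8.4 and 5.9 CPM in Vhl DMSO libraries, against 13.4, 9.99 and 12.5 CPM in control DMSO libraries; it was called with DESeq2 (adjusted p = 0.0294), limma on log2(CPM + 1) (0.0435), no filter (0.0377) and a fit of the DMSO groups alone (0.0214). Rad51b (log2 changes -0.58 ± 0.29 in AZD8330 and -0.2 ± 0.25 in DMSO) and Rad51d (0.79 ± 0.48 in AZD8330 and 0.23 ± 0.47 in DMSO) were not called.

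Exo1 and Brip1 were lower in Vhl cells in both treatments. Exo1 was at 52.8% of the control level in AZD8330 (log2 change -0.91, SE 0.28, adjusted p = 0.0295) and at 59.7% in DMSO (log2 change -0.74, SE 0.21, adjusted p = 0.017). The Exo1 call in AZD8330 ended with no filter (adjusted p = 0.052), with limma on log2(CPM + 1) (0.0629) and in a fit of the AZD8330 groups alone (0.107). It also ended without Vhl AZD8330 A (adjusted p = 0.084), Vhl AZD8330 C (0.0838), control AZD8330 A (0.0752) or control AZD8330 C (0.052), and that in DMSO without Vhl DMSO C (0.0674), control DMSO A (0.0638) or control DMSO C (0.0526). Brip1 was at 60.8% in AZD8330 (log2 change -0.72, SE 0.18, adjusted p = 0.00869) and at 65.8% in DMSO (log2 change -0.6, SE 0.14, adjusted p = 0.0051), and the AZD8330 call ended in a fit of those 2 groups alone (adjusted p = 0.0822). Rbbp8 was not called in either treatment (log2 changes -0.01 ± 0.10 in AZD8330 and -0.27 ± 0.10 in DMSO), though in DMSO it was without Vhl DMSO B (adjusted p = 0.0422) or control DMSO C (0.0442), with DESeq2 (0.0486) and with its size factors (0.0414). Mre11a (-0.03 ± 0.15 in AZD8330 and -0.14 ± 0.14 in DMSO) and Fancm (0.12 ± 0.08 in AZD8330 and -0.06 ± 0.08 in DMSO) were not called. Blm in AZD8330 was at 0.691, 0.787 and 2.12 CPM in Vhl AZD8330 libraries, against 0.445, 0.262 and 0.359 CPM in control AZD8330 libraries. It just missed the threshold (log2 change 1.72, SE 0.61, adjusted p = 0.0507), and passed it without Vhl AZD8330 A (adjusted p = 0.0401), with DESeq2 (0.0315), with no filter (0.0143) and with libraries scaled by their totals (0.0499); in DMSO its log2 change was 0.11 ± 0.47.

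Of the Fanconi core, Fancb and Fancl were lower in Vhl cells in DMSO. Fancb was at 55.2% of the control level (log2 change -0.86, SE 0.18, adjusted p = 0.00314), the largest fall of the 8. Fancl was at 12.3, 15 and 12.5 CPM in Vhl DMSO libraries, against 19.5, 21.3 and 20.2 CPM in control DMSO libraries, without overlap (log2 change -0.62, SE 0.13, adjusted p = 0.00247). In AZD8330 neither was called (log2 changes -0.45 ± 0.22 for Fancb and -0.12 ± 0.13 for Fancl), and Fancb was called lower there without control AZD8330 B (-0.64, adjusted p = 0.048). The differences between treatments were not called for Fancb (adjusted p = 0.411) or Fancl (0.106). Fancc (log2 change 0.41, SE 0.15, adjusted p = 0.0508 in AZD8330 and log2 change -0.21, SE 0.14, adjusted p = 0.312 in DMSO) and Fancg (log2 change -0.14, SE 0.11, adjusted p = 0.397 in AZD8330 and log2 change -0.23, SE 0.11, adjusted p = 0.137 in DMSO) were not called; Fancc was called higher in AZD8330 with limma on log2(CPM + 0.1) (adjusted p = 0.0445) or log2(CPM + 1) (0.0482) and with libraries scaled by their totals (0.0484). Fanca (log2 changes -2.07 ± 0.96 in AZD8330 and -0.17 ± 0.81 in DMSO), Fanci (2.35 ± 1.14 in AZD8330 and -0.43 ± 0.91 in DMSO) and Fancd2 (-0.06 ± 0.61 in AZD8330 and -0.00 ± 0.52 in DMSO) carried large errors and were not called. Fanci was called higher in AZD8330 without Vhl AZD8330 C (2.89, adjusted p = 0.0351), the Vhl library in which it is listed at 0, and with no filter (0.00692), which also called Fanca lower (0.0355).

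The mismatch repair genes and the kinases split. Msh6 was at 83.7% of the control level in DMSO (log2 change -0.26, SE 0.04, adjusted p = 0.000213) and Atm at 79.3% (log2 change -0.33, SE 0.06, adjusted p = 0.000799), and in AZD8330 neither was called (log2 changes 0.07 ± 0.04 for Msh6 and -0.04 ± 0.06 for Atm). Pms2 and Atr were higher in Vhl cells in AZD8330. Pms2 was at 24.5, 23.5 and 25 CPM in Vhl AZD8330 libraries, against 16.3, 20.1 and 18 CPM in control AZD8330 libraries (log2 change 0.42, SE 0.09, adjusted p = 0.00394). For Atr, all 3 Vhl AZD8330 libraries lay above all 3 control AZD8330 libraries (log2 change 0.58, SE 0.09, adjusted p = 0.000412). In DMSO both were also above control in every library but were not called (log2 change 0.25, SE 0.09, adjusted p = 0.0529 for Pms2 and log2 change 0.22, SE 0.09, adjusted p = 0.0836 for Atr); without Vhl DMSO C, Pms2 was (adjusted p = 0.0486), and both were with libraries scaled by their totals (0.0198 for Pms2 and 0.0325 for Atr), at a mean of at least 5 CPM (0.021 for Pms2 and 0.0288 for Atr) and in a fit of the DMSO groups alone (0.0389 for Pms2 and 0.0126 for Atr). Chek1 (-0.26 ± 0.22 in AZD8330 and -0.36 ± 0.18 in DMSO) and Chek2 (0.23 ± 0.15 in AZD8330 and -0.26 ± 0.13 in DMSO) were not called. Without Vhl DMSO A, Chek1 was called lower in DMSO (log2 change -0.58, adjusted p = 0.0224).

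The test of the difference between the 2 Vhl effects, AZD8330 minus DMSO, called 3 of the 30 genes: 2 higher (Msh6 and Atm) and 1 lower (Bard1), where 7.81% of all tested genes were called higher and 4.96% lower; of all calls, 61.2% were higher, and 43.8% when libraries were scaled by their totals. For Bard1 the Vhl deficit was larger in AZD8330 (log2 change -0.67, SE 0.16, adjusted p = 0.0158). For Msh6 the Vhl effect was higher in AZD8330 than in DMSO (log2 change 0.33, SE 0.06, adjusted p = 0.00259): all 3 Vhl libraries lay above all 3 control libraries in AZD8330 and below them in DMSO. Atm had the weakest of the 3 calls (log2 change 0.3, SE 0.09, adjusted p = 0.0424), and it ended under 13 of 20 alternatives, among them leaving out Vhl AZD8330 A (adjusted p = 0.205), B (0.144) or C (0.201), control AZD8330 B (0.201) or C (0.246), Vhl DMSO B (0.0865) or C (0.0917), or control DMSO A (0.0849) or B (0.095). The called shares of the 30 genes, 6.67% higher and 3.33% lower, were near those of all genes.

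Replication and mitosis genes were also lower in Vhl cells. In AZD8330, 15 of 25 tested replication genes and 16 of 18 mitosis genes were lower (median log2 changes -0.47 for replication and -1.06 for mitosis), and in DMSO 13 of 25 and 14 of 18 (-0.39 for replication and -0.53 for mitosis); none was higher in either. Of 28 further genes of the repair routes, 6 were lower in AZD8330 and 7 in DMSO, and 0 higher. Those with the smallest p were Gen1, a resolvase of Holliday junctions, in AZD8330 (log2 change -0.91 ± 0.14) and Topbp1 in DMSO (-0.47 ± 0.06). Of 26 tested end joining and other repair genes, 2 were lower and 3 higher in AZD8330, and 3 lower and 1 higher in DMSO. Mki67 had log2 changes of -1.19 in AZD8330 and -0.55 in DMSO. Markers of other cell types differed too. Astrocyte markers summed to 704.3 to 749.8 CPM in Vhl AZD8330 libraries, against 1301 to 1357 CPM in control AZD8330 libraries, and to 199.9 to 216.6 CPM in Vhl DMSO libraries, against 303.7 to 334.4 CPM in control DMSO libraries. Neuron markers summed to 2441 to 2473 CPM in Vhl AZD8330 libraries, against 2094 to 2104 CPM in control AZD8330 libraries, and to 1431 to 1566 CPM in Vhl DMSO libraries, against 994.0 to 1046 CPM in control DMSO libraries. The part of these shifts, and of those of replication and mitosis genes, in the repair gene differences was not tested.

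In untreated cells, 0 of the 29 tested genes were called in either direction between Vhl and control cells by edgeR, where 0.0147% of all 13569 tested genes were called. DESeq2 and limma also called 0. An unadjusted p under 0.05 was given by edgeR for 1267 of all 13569 tested genes, in either direction. Among the repair genes at that threshold, Blm and Chek2 were higher in Vhl cells and 0 lower, a share not above that of all tested genes. The median log2 change was 0.30, against 0.05 for all tested genes, with 24 estimates above 0 and 5 below. Chek2 was at 9.46, 6.17 and 6.61 CPM in untreated Vhl libraries, against 3.8, 4.09 and 3.39 CPM in untreated control libraries, which do not overlap (log2 change 0.98, SE 0.30, adjusted p = 0.393). Blm was at 2.97, 3.11 and 18.4 CPM in untreated Vhl libraries, against 0.359, 1.44 and 2.22 CPM in untreated control libraries, and its mean rests on Vhl C (log2 change 2.59, SE 0.93, adjusted p = 0.453). In 4 genes, Rad51b, Blm, Exo1 and Chek2, the Vhl libraries all lay above the control libraries. How many of all tested genes were apart in this way was not counted. Single libraries stood high or low in many genes: Vhl A was the highest of the 6 libraries for 11 of the 29 genes, Vhl C for 9 and Vhl B for 6. Rad51ap1 was at 20.5, 9.28 and 6.87 CPM in untreated Vhl libraries, against 6.96, 9.23 and 7.37 CPM in untreated control libraries. Chek1 was at 11.4, 6.36 and 2.23 CPM in untreated Vhl libraries, against 2.94, 4.97 and 4.18 CPM in untreated control libraries. In both genes Vhl A was the highest of the 6 libraries and Vhl C the lowest. The summed 29 genes reached 524.6, 608.1 and 610.6 CPM in untreated Vhl A, B and C, against 588.4, 469.6 and 463.9 CPM in untreated control A, B and C, so that control A lay among the Vhl libraries. Mitosis genes summed to 2074, 1881 and 2480 CPM in untreated Vhl A, B and C, against 2164, 1011 and 1005 CPM in untreated control A, B and C, with control A again among the Vhl libraries. Astrocyte markers summed to 240.9 to 386.6 CPM in untreated Vhl libraries, against 576.3 to 622.1 CPM in untreated control libraries, and the ranges of neuron markers (1856 to 4158 CPM in untreated Vhl libraries, against 2512 to 3210 CPM in untreated control libraries), oligodendrocyte markers (363.0 to 639.2 CPM in untreated Vhl libraries, against 516.2 to 1011 CPM in untreated control libraries, with Mog at 0) and OPC markers (9779 to 12968 CPM in untreated Vhl libraries, against 10524 to 11502 CPM in untreated control libraries) overlapped. Their part and that of the mitosis genes in the repair gene values was not tested. Among genes described in the drug experiment, Msh6 was at 87.3, 118.4 and 102.3 CPM in untreated Vhl libraries, against 109.6, 89.5 and 84.6 CPM in untreated control libraries. Bard1 was at 14, 15 and 18.8 CPM in untreated Vhl libraries, against 16.1, 10.5 and 9.59 CPM in untreated control libraries. Rad54l was at 29.2, 20.7 and 19.1 CPM in untreated Vhl libraries, against 30.4, 21.1 and 15.3 CPM in untreated control libraries. In all 3 the groups overlapped, and control A was the highest control library. Atm was at 67, 106.8 and 116.2 CPM in untreated Vhl libraries, against 114.7, 82.3 and 84.9 CPM in untreated control libraries, Brip1 at 8.76, 8.14 and 11.4 CPM in untreated Vhl libraries, against 11.2, 6.69 and 5.48 CPM in untreated control libraries and Brca2 at 25.1, 42.5 and 58.1 CPM in untreated Vhl libraries, against 49.8, 25.7 and 24.5 CPM in untreated control libraries. These 3 overlapped in the same way. Exo1 was at 3.62, 4.64 and 3.05 CPM in untreated Vhl libraries, against 2.29, 2.38 and 1.76 CPM in untreated control libraries. Fancb was at 5.1, 3.05 and 2.48 CPM in untreated Vhl libraries, against 3.3, 2.32 and 3.07 CPM in untreated control libraries, and Palb2 at 5.61, 5.66 and 8.14 CPM in untreated Vhl libraries, against 5.31, 5.86 and 4.89 CPM in untreated control libraries. Of these last 3, Exo1 was apart between the groups, with few counts, and was not called (log2 change 0.81, SE 0.35, adjusted p = 0.536). Without both A libraries, Fancd2 was called higher in Vhl cells (log2 change 1.48, adjusted p = 0.0477), at 7.33, 12.6 and 13 CPM in untreated Vhl libraries, against 8.46, 4.15 and 5.02 CPM in untreated control libraries. Estimates of the other genes ran from -0.28 for Rad51d to 1.33 for Fanca.

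**Figure D5:**
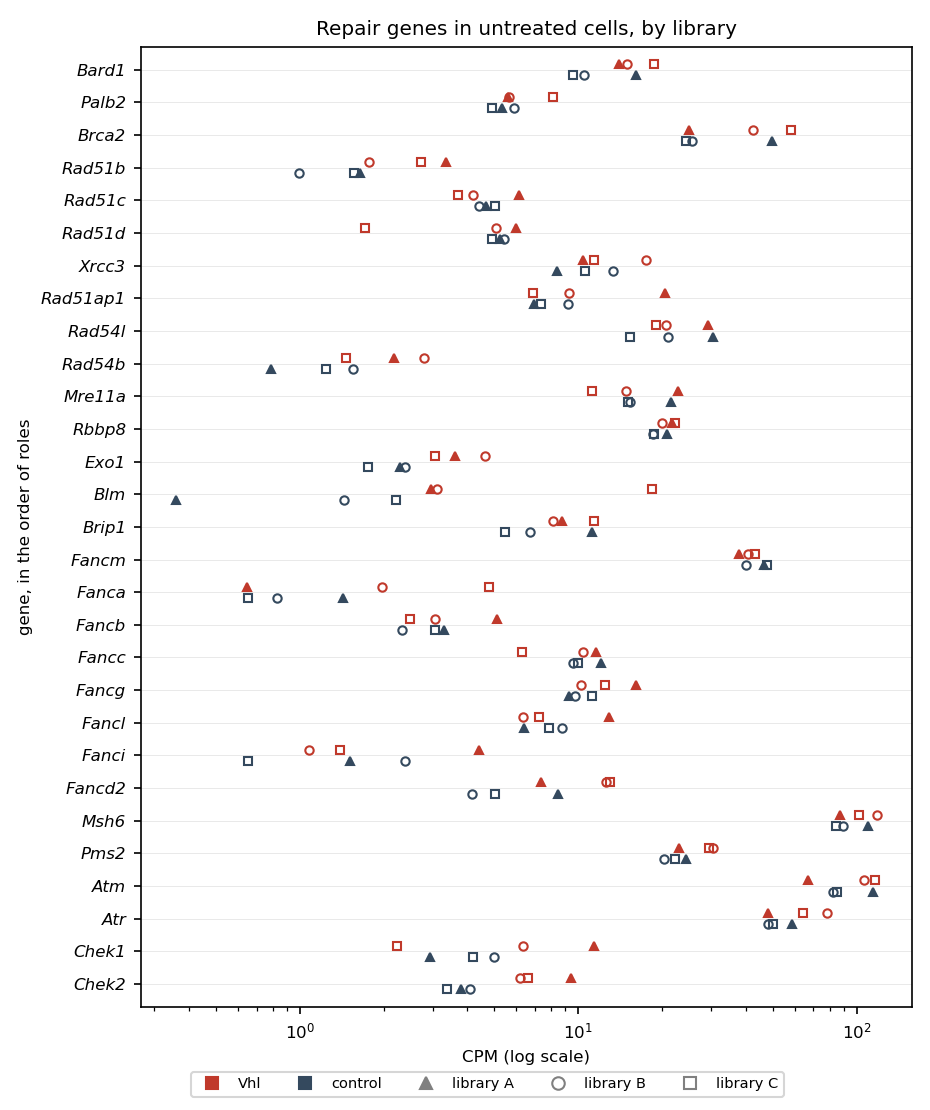
CPM of the 29 tested repair genes in each untreated library on a log scale, for Vhl cells (red) and control cells (blue), with library A as filled triangles, B as circles and C as squares. The groups overlap for most genes, and Chek2 is one of the few without overlap (6.17 to 9.46 CPM in Vhl libraries, against 3.39 to 4.09 CPM in control libraries).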

How the data were processed

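Mouse OPC RNA was sequenced in 18 bulk libraries, in 6 groups of 3. Reads were quantified with Salmon 0.14.1 against mm10, per the submitters' processing notes; strandedness and annotation release are not stated there. The deposited values are named TPM but were treated as estimated counts, a reading from the values that no source states: library totals differ, from 12391077 to 21160250, and 59.9% and 60.6% of values above 0 in the untreated and drug tables were whole within 0.0015. Each table held 54279 rows, 26 of them named as dates.

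Estimated counts were rounded and tested in R 4.3.3 with edgeR 4.0.16 (TMM, mean of at least 1 CPM over a table, quasi-likelihood test, Benjamini-Hochberg adjustment over all tested genes, threshold 0.05). The untreated table was fitted alone, and the 4 drug groups were fitted together. The SE is the size of the log2 change divided by the square root of F. The fit was tested on simulated data with known changes. Alternatives were other scalings, filters of low values, limma 3.58.1, DESeq2 1.42.0, the replicate letter as a block and libraries left out. No label states that libraries are from separate cultures: the p-values rest on the spread between these libraries, which may be technical.

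Members and gene lists were chosen with earlier results of these data known. Every member is named, and values in every library are given at least for the 12 with the smallest adjusted p; of other pathway genes, up to 4 with the smallest p per comparison could be named. The 2 columns of means made by the authors were not used. Figures were drawn with matplotlib 3.10.9.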

Additional observations from a re-analysis of the deposited data

Results flagged for a closer look

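The Vhl effect differed between the treatments for 3 of the 30 repair genes, by the test of the difference itself, which called 12.8% of all tested genes; the share of repair genes is not above that. For Bard1 it was lower in AZD8330 than in DMSO by a log2 difference of -0.67 (SE 0.16, edgeR adjusted p = 0.0158), and all 3 Vhl libraries lay below all 3 control libraries in both treatments. For Msh6 the difference was 0.33 (SE 0.06, adjusted p = 0.00259), with all 3 Vhl libraries above all 3 control libraries in AZD8330 and below them in DMSO. For Atm it was 0.3 (SE 0.09, adjusted p = 0.0424), with 3 of 3 Vhl libraries below the control libraries in DMSO and overlapping libraries in AZD8330. The Atm call ended under 13 of 20 alternatives (log2 difference 0.19 to 0.36), and the Bard1 call ended with limma on log2(CPM + 1) (adjusted p = 0.0583).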

How the results depend on the processing

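Falls with AZD8330 were the steadiest calls: 24 of 25 in Vhl cells and 26 of 27 in control cells held under every alternative run, as did 4 of 8 Vhl calls in AZD8330, 7 of 8 in DMSO and 1 of 3 (Msh6) between treatments, and no called gene changed direction. Repair genes called higher numbered 1 in untreated cells without both A libraries (against 0). In DMSO they numbered 2 with total counts, with a mean of at least 5 CPM and with only the 2 groups compared (against 0), and 0 to 1 with a library left out. In AZD8330 they numbered 5 with total counts and with no filter (against 3), while only the 2 groups compared left 2 lower (against 5). Between treatments, repair genes called higher numbered 1 with DESeq2 size factors, total counts, a mean of at least 5 CPM or DESeq2, and 4 with no filter (against 2), and limma on log2(CPM + 1) left 0 lower (against 1); with a library left out, 1 to 2 were higher and 1 to 2 lower. The median log2 change with AZD8330 was -1.4 in Vhl cells and -1.69 in control cells at a mean of at least 5 CPM, and -1.24 in Vhl cells and -1.55 in control cells with limma on log2(CPM + 1) (against -1.7 in Vhl cells and -1.92 in control cells). With a library left out, 24 to 27 repair genes fell in Vhl cells and 27 to 28 in control cells. The replicate letter did not pair libraries (same-letter correlations -0.13 to 0.07), and not every library correlated best with its own letter; with it as a replicate block, 26 repair genes fell in Vhl cells and 28 in control cells, and the other counts of called repair genes did not change. Over all genes in untreated cells, edgeR called 2 higher and 0 lower, DESeq2 246 higher and 109 lower, limma 4 higher and 0 lower, edgeR with no filter 112 higher and 31 lower, edgeR without both A libraries 395 higher and 211 lower, and edgeR with the block 0; between treatments, edgeR called 667 lower and 1037 at a mean of at least 5 CPM. Except where stated, the cause was not tested. Few counts limit Brca1, Exo1, Rad54b, Fanca, Fanci, Blm and, in 1 library, Fancd2 under AZD8330.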

Other observations

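Control cells of the 2 experiments can be set side by side, without a test, since the tables were normalized separately. All 29 repair genes tested in both tables had a higher mean in control DMSO than in untreated control cells, and 6 of the 29 had a higher mean in control AZD8330 than in untreated control cells. Chek1 averaged 28.8 CPM in control DMSO, 3.66 CPM in control AZD8330 and 4.03 CPM in untreated control libraries. Rad51ap1 averaged 42.3 CPM in control DMSO, 7.95 CPM in control AZD8330 and 7.85 CPM in untreated control libraries. In other genes the last 2 means lay further apart. Atm averaged 48.1 CPM in control AZD8330 and 94.0 CPM in untreated control libraries, and Msh6 55.4 and 94.6 CPM. The ERK target Dusp6 averaged 416.2 CPM in control DMSO, 20.9 CPM in control AZD8330 and 53.2 CPM in untreated control libraries. The cause of the differences between the experiments was not tested. The untreated table also holds a column of means made by the authors for each group. The one for Vhl cells equals the mean of untreated control B, untreated control C and untreated Vhl A within 0.01 in 100% of rows, and the mean of the 3 untreated Vhl libraries in 51.7%; the one for control cells equals the mean of its own 3 libraries in 100%. Whether the formula of that column or the label of a library is at fault could not be settled from the tables, and this doubt covers the untreated comparison. By library, Vhl transcript was at 87.3, 90.2 and 74.1 CPM in untreated Vhl A, B and C, against 116.9, 121.1 and 125.4 CPM in untreated control A, B and C, and Bnip3 was at 160.1, 513.7 and 517 CPM in untreated Vhl A, B and C, against 17.1, 17.5 and 19.2 CPM in untreated control A, B and C, with no overlap for either gene.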
